A study of Mus musculus with 3 samples.

Results

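Peaks of the chromatin remodeller ATRX were located at 7 genes for metabotropic glutamate receptors, Grm2, Grm3, Grm4, Grm5, Grm6, Grm7 and Grm8, in 2 deposited peak lists. A peak was counted for a gene when it overlapped the gene's span in mouse GRCm38 or the 5 kb on either side, and the members are 7 of the 21887 protein-coding genes on the chromosomes. Together they held 115 of 112153 control peaks and 129 of 105674 MICAL1-FL peaks. The cells were primary neurons from C57BL6/J embryos of E15.5 to E17.5. Lentivirus was added on day 5 in vitro, and ChIP-seq with an antibody to ATRX followed on day 14. Control neurons carried mCherry, and the others carried MICAL1-FL, a form of the actin-oxidising enzyme MICAL1. Both groups were infected, and the promoter that drives either insert is not given in the labels. Each group had 1 ChIP library, so no difference between the groups has a replicate check, and none was tested. Intervals are 95% and cover counting error only. Peaks do not measure expression, so the labelled cell type could not be checked against marker genes here. Peaks of the list labelled MICAL1-FL carry names that begin with TBC_M2, and the group was taken from the sample label.

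Metabotropic glutamate receptors are G protein-coupled receptors that tune synaptic transmission more slowly than the ion channels opened by glutamate. Group I receptors, here Grm5, couple to Gq and phospholipase C and sit mainly on the postsynaptic side, where Homer proteins bind them. Group II receptors (Grm2 and Grm3) and group III receptors (Grm4, Grm6, Grm7 and Grm8) couple to Gi and Go and lower cyclic AMP, and most of them damp transmitter release. Grm3 is also known from astrocytes, and Grm6 is known for its role in ON bipolar cells of the retina. ATRX is known to place histone H3.3 at repeats and at G-rich DNA that can fold into quadruplexes.

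ATRX peaks lay within 1 kb of the start of Grm2, Grm3, Grm7 and Grm8 in at least 1 list, out of 5 members whose start is known here. A summit within 1 kb of a gene end was found at 4 of the 7 genes in the control list (Grm2, Grm3, Grm4 and Grm7), where 26.6% of all protein-coding genes had one. In the MICAL1-FL list it was found at 5 of 7 (Grm3, Grm4, Grm5, Grm7 and Grm8), against 25.3%. Within 500 bp these numbers were 3 of 7 in the control list (Grm2, Grm4 and Grm7), against 16.7%, and 2 of 7 in the MICAL1-FL list (Grm3 and Grm7), against 16.3%. Within 1 kb, an end summit stood in at least 1 list at 6 of 7, against 41.6%. It stood in both lists at 3 of 7 (Grm3, Grm4 and Grm7), against 10.3%. Within 500 bp these were 4 of 7, against 28.4%, and 1 of 7 (Grm7), against 4.56%. The strand is known here from the RefSeq promoter table (build GRCm38.p6), which matched 5 of the 7 genes and has no entry for Grm4 or Grm5. Within 1 kb of the 5′ end, 3 of these 5 genes had a control summit (Grm2, Grm3 and Grm7), beside 21.3% of genes. That share and those that follow are over the 17492 protein-coding genes with a known strand. Also at the 5′ end, 3 of 5 had a MICAL1-FL summit (Grm3, Grm7 and Grm8), beside 20.7%. A 5′ summit stood in at least 1 list at 4 of 5, beside 34.4%, and in both lists at 2 of 5, beside 7.61%. Within 500 bp, 2 of 5 had a 5′ summit in each list and 3 of 5 in at least 1, beside 23.8% of genes for the latter. No member of the 5 had a summit within 1 kb of its 3′ end in either list, where 12.4% of genes had one in at least 1 list. With 5 or 7 genes these shares are descriptions of the members and were not tested.

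Sequences around the 5′ ends are shown because the peaks of 4 genes fall on or beside them, with Grm6 as the gene that has none there. Each runs 5′ to 3′ on the gene's strand in GRCm38.p6, from 250 bases before a RefSeq start to 30 bases from it. Capitals mark a match to a quadruplex pattern, 4 or more runs of at least 3 G with 1 to 7 letters between neighbouring runs, searched on both strands.
Grm2 (chr9:106656080-106656359, minus strand): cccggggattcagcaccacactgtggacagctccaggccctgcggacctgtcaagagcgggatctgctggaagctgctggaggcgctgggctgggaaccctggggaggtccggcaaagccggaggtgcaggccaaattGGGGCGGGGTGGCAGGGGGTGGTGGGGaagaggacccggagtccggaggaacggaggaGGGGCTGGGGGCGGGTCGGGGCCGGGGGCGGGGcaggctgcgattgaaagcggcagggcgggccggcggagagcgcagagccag
Grm3 (chr5:9725323-9725602, minus strand): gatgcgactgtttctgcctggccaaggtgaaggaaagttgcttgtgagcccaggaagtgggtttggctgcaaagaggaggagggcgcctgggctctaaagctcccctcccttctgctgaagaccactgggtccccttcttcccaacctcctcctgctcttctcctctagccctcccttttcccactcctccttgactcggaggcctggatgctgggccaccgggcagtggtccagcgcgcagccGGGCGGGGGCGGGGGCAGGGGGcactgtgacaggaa
Grm7 (chr6:110645348-110645627, plus strand, the second of its 2 listed starts): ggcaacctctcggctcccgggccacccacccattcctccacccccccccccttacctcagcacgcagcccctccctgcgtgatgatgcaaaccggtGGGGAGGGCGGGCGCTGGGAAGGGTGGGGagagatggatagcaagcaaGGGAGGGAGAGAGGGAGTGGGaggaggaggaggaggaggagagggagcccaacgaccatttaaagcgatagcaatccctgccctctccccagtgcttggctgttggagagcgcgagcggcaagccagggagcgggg
Grm8 (chr6:28134392-28134671, minus strand, the middle of its 3 listed starts): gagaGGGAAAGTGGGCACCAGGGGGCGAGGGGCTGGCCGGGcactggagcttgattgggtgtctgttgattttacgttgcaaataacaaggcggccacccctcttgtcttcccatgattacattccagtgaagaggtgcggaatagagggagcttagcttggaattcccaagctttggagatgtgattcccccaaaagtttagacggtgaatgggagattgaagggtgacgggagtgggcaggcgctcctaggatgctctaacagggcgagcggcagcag
Grm6 (chr11:50850435-50850714, plus strand): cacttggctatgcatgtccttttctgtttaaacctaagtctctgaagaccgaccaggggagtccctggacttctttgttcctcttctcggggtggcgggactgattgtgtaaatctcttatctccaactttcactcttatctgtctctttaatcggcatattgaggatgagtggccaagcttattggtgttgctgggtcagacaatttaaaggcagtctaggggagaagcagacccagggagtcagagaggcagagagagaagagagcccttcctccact
The windows shown for Grm2, Grm3, Grm7 and Grm8 hold the pattern on the gene's own strand, and that of Grm6 holds it on neither. Of the other windows of Grm7 and Grm8, the innermost of Grm8 (chr6:28126397-28126676) also lacks it, with 43.6% G and C. The outermost of Grm8 (chr6:28135117-28135396) holds it, with 66.1% G and C, and lay under no peak of either list. The pattern was found in 21.3% of all 21263 such windows of protein-coding genes. It was found in 38.0% of the 2037 windows under a control peak, 32.6% of the 2096 under a MICAL1-FL peak, 45.6% of the 450 under peaks of both lists and 18.7% of those under none. Windows under peaks were also richer in G and C, with a median of 65.7% under control peaks, 64.6% under MICAL1-FL peaks and 54.3% under none. The part of base composition in the pattern's share was not tested. In the windows printed, G and C made up 72.1% at Grm2, 63.6% at Grm3, 66.4% at Grm7, 55.4% at Grm8 and 48.6% at Grm6.

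Grm7, a presynaptic group III receptor, had the start peak of lowest p among the members. Its control peak covered chr6:110645486-110646202, with its summit 267 bp inside the gene, a fold of 2.81, a depth of 7 fragments and a p of 0.000669. The MICAL1-FL peak covered chr6:110645586-110645904, with its summit 403 bp inside, a fold of 3.82, a depth of 9 fragments and a p of 7.81e-06. All 319 bp of the MICAL1-FL peak lay within the control peak, and the summits were 136 bp apart. Among the 129 MICAL1-FL peaks of the members this one had the lowest p, and among the 52 control peaks of Grm7 the start peak ranked 5. The authors' peak caller gave the folds, p-values and q-values, which serve here only to rank peaks within a list. In the printed window the control peak covered 21 of the 50 pattern bases, and the MICAL1-FL peak covered none of them.

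Grm3, a group II receptor, had its shared peak just upstream of the start. The control peak covered chr5:9725710-9726088, with its summit 659 bp before the 5′ end and a depth of 5 fragments. The MICAL1-FL peak covered chr5:9725386-9725916, with its summit 191 bp before it and a depth of 7 fragments. They overlapped by 207 bp, with summits 468 bp apart. The MICAL1-FL peak covered 217 of the 280 bases shown and stopped short of the G-rich stretch, while the control peak lay wholly outside the window.

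Grm2, the other group II receptor, had a start peak in the control list alone. It covered chr9:106656066-106656410, and with it every base shown, with its summit 8 bp inside the gene. It was weak, with a fold of 1.85, a depth of 6 fragments and a p of 0.0234. The MICAL1-FL list had 1 peak at Grm2, at chr9:106640056-106640322, outside the gene and 4327 bp past its 3′ end. That peak was 8 fragments deep with a fold of 3.34, so the gene's only peaks were at opposite ends of it.

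Grm8, a group III receptor, had a start peak within 1 kb in the MICAL1-FL list alone. It covered chr6:28134262-28135048, including all 280 bases shown, with its summit 616 bp inside the gene and a depth of 6 fragments. The nearest control peak, at chr6:28133513-28133852, was 7 fragments deep with its summit at 1450 bp, and 834 bp separated these summits. The window printed was chosen because it lay under a peak, and the same windows at the outermost and the innermost listed start of Grm8 were under no peak of either list. With ends read to 3 kb, Grm8 therefore had a 5′ summit in both lists. At such depths a peak found in only 1 of the lists is no evidence of a difference.

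Grm4 and Grm5 could not be oriented, and their ends are named by coordinate. At the higher-coordinate end of Grm4, a group III receptor, the control list had a peak of 1552 bp at chr17:27512019-27513570, the widest of all member peaks. It was 9 fragments deep with a fold of 2.95. A MICAL1-FL peak of 283 bp at chr17:27512798-27513080, 6 fragments deep, lay wholly inside it. The other MICAL1-FL peaks of Grm4, at chr17:27500982-27501423 and chr17:27502250-27502644, tied with it at a fold of 2.68. A second control peak at chr17:27514548-27514856 lay 842 bp outside the gene. At the lower-coordinate end of Grm5 the MICAL1-FL list had a peak at chr7:87584564-87584815, 687 bp inside and 5 fragments deep, and the nearest control summit was 29710 bp from it. Grm6 had no summit within 1 kb of either end in either list. Its one peak, in the MICAL1-FL list at chr11:50864267-50864597, was 5 fragments deep and 1761 bp from the 3′ end.

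**Figure D1:**
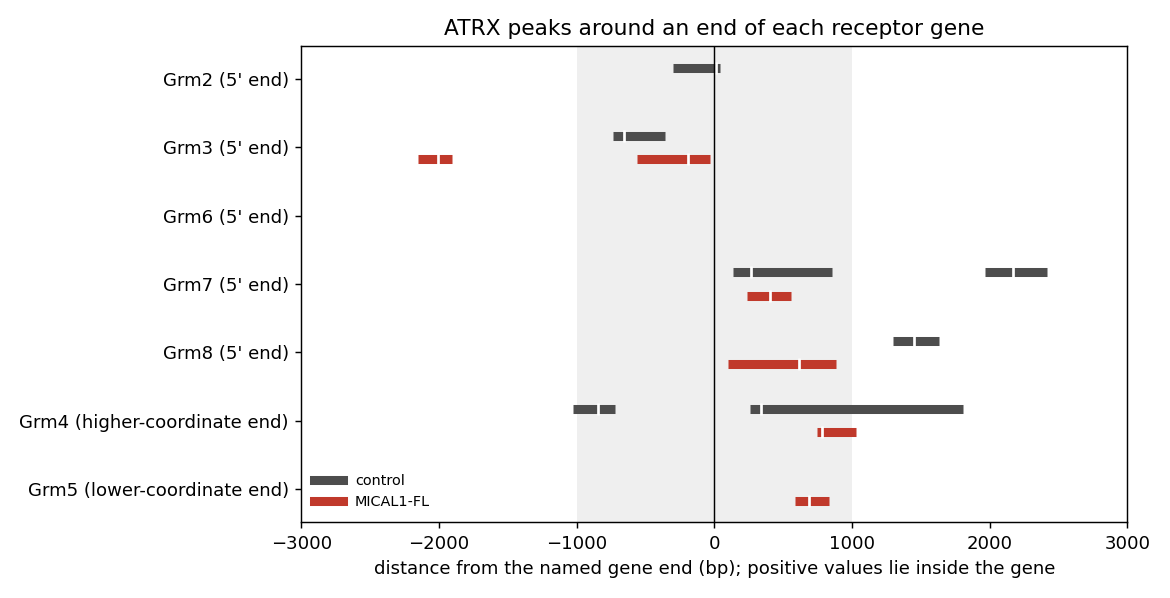
ATRX peaks (bars) and their summits (white marks) of the control list (grey) and the MICAL1-FL list (red) within 3000 bp of the 5′ end of Grm2, Grm3, Grm6, Grm7 and Grm8, and of the end of Grm4 and Grm5 that had a peak, with the distance in bp on the x axis and positive values inside the gene. Bars of both lists overlap at Grm3, Grm7 and Grm4, and the row of Grm6 is empty.

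Starts stood out from 3′ ends over all genes too. Among the 17492 genes with a known strand, 1170 control and 1270 MICAL1-FL summits lay within 250 bp of a 5′ end, which is 3.64 and 4.63 times the number in windows of equal size at 5 to 10 kb. At 3′ ends these ratios were 0.707 and 0.875. The members' start peaks are thus in places where both lists are dense in general.

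Peak numbers were higher in the long receptor genes than in the short ones. Among the long ones, Grm8 had fewer control peaks than the shorter Grm5. The 4 genes of 100 kb or more (Grm3, Grm5, Grm7 and Grm8) held 110 of the 115 control and 124 of the 129 MICAL1-FL peaks. Grm7, 921.9 kb long, had 52 control peaks (38.8 to 68.2, exact Poisson interval) and 53 MICAL1-FL peaks (39.7 to 69.3). Grm8, 860.0 kb long, had 22 (13.8 to 33.3) and 31 (21.1 to 44.0). Grm5, 551.1 kb long, had 24 (15.4 to 35.7) and 22 (13.8 to 33.3). Grm3, 240.1 kb long, had 12 (6.20 to 20.96) and 18 (10.7 to 28.4). The short genes had few peaks: Grm4, 91.4 kb long, had 4 and 3, Grm2, 11.6 kb long, had 1 in each list, and Grm6, 15.8 kb long, had 0 and 1. The count of 0 allows up to 3.69 peaks by the Poisson interval.

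**Figure D2:**
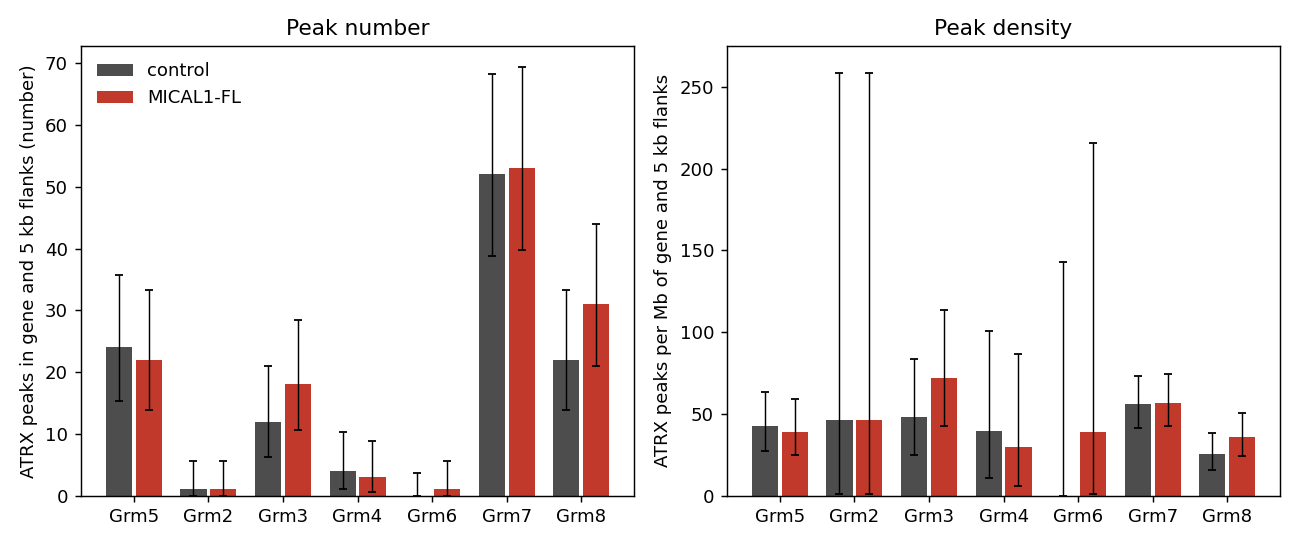
Number of ATRX peaks (left) and peaks per Mb (right) in each receptor gene with its 5 kb flanks, in the control list (grey bars) and the MICAL1-FL list (red bars), with exact Poisson 95% intervals. Grm7 has the most peaks in both lists (52 and 53), and the intervals of Grm2 and Grm6 are too wide to place their densities.

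Pooled per Mb, the 7 genes together had 41.6 peaks in control and 46.7 with MICAL1-FL. The 4 of 100 kb or more, pooled, had 42.1 and 47.5. A pooled density is not the same measure as the medians over single genes that follow. Protein-coding genes of 100 kb or more, 2429 in all, had medians of 45.7 and 44.7, with quartiles of 28.0 and 68.5 and of 28.7 and 62.4. Grm7 had 55.8 and 56.9 peaks per Mb, and Grm5 had 42.8 and 39.2, all within these ranges. Grm3 had 48.0 in control and 72.0 with MICAL1-FL, the latter above 84.4% of the long genes. Grm8 was the sparsest of the 4, with 25.3 and 35.6, and its control value exceeded only 20.9% of them.

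Grm7 and Grm8, both on chromosome 6 and of like length, differed in density. Grm7 had 2.21 times the control density of Grm8 (1.32 to 3.82, exact conditional binomial interval) and 1.60 times its MICAL1-FL density (1.01 to 2.57). In the MICAL1-FL list the ratio of Grm3 to Grm8 was larger, at 2.02 (1.06 to 3.73), while its control interval included 1. These pairs are among 5 set side by side, chosen after their values were seen. In the 1 Mb on both sides of each gene the control list had 94 peaks around Grm7 and 94 around Grm8, and the MICAL1-FL list had 102 and 67. The neighbourhoods were thus alike in the control list, while in the MICAL1-FL list that of Grm7 was the denser, as was Grm7 itself. Whether the densities of the genes follow their regions was not tested. How well reads map in either gene was not measured.

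**Figure D3:**
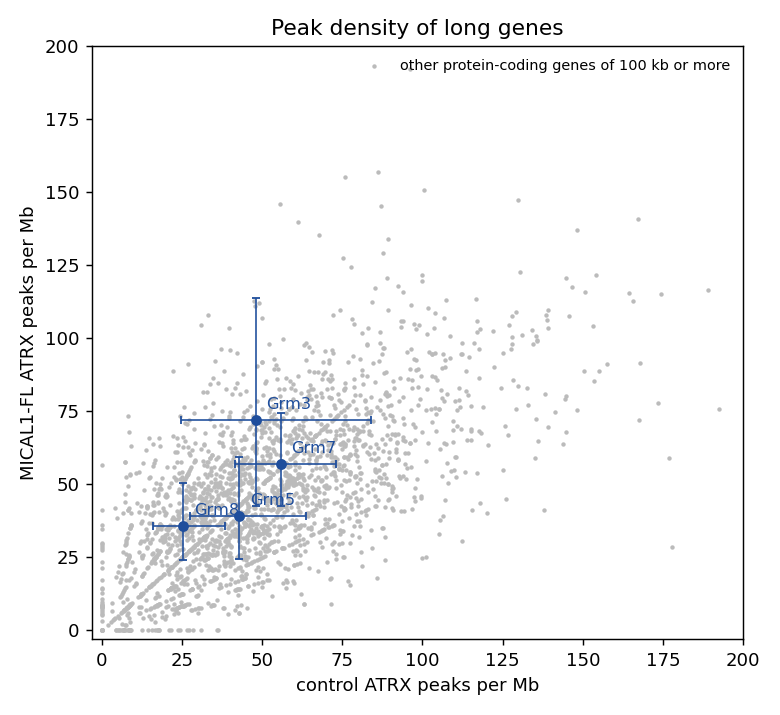
Control (x axis) against MICAL1-FL (y axis) ATRX peaks per Mb of gene and 5 kb flanks for Grm3, Grm5, Grm7 and Grm8 (blue, with exact Poisson 95% intervals), among the other protein-coding genes of 100 kb or more (grey), of which 13 lie beyond the axes. All 4 receptor genes lie inside the cloud of long genes, Grm8 toward its lower left.

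Peak numbers of the 2 lists were within 2 of each other at Grm5 and Grm7, and those of the MICAL1-FL list were the higher at Grm3 and Grm8, within counting error. The list ratio of MICAL1-FL to control peaks over all protein-coding gene windows was 0.927, and each gene was read against it. A gene was called at 1.5-fold or more from that ratio with at least 10 peaks in both lists together. Of the 4 members with that many, 2 were called above it (Grm3 and Grm8) and 0 below. Over all 2602 genes with that many, 20.7% were called above and 19.5% below. Relative to all genes, the log2 ratio was 0.69 for Grm3 (-0.44 to 1.88), 0.60 for Grm8 (-0.23 to 1.46), 0.14 for Grm7 (-0.44 to 0.72) and -0.02 for Grm5 (-0.92 to 0.88). For the 7 genes together it was 0.28 (-0.10 to 0.65). Every one of these intervals includes 0. At Grm8 the surplus lay in weak peaks, since with p of 0.01 or less the lists had 17 peaks each and the log2 ratio was 0.12, short of a call. At Grm3 these numbers were 6 and 12, with a log2 ratio of 1.12. With the 50000 peaks of lowest p from each list, neither gene was called (0.53 for Grm3 and 0.15 for Grm8). Read against all autosomal peaks, Grm8 was at 0.57, again short of a call.

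Along the genes, peaks were spread from end to end with long bare stretches. In Grm7 the control peaks thickened toward the 3′ end. Of its 52 control summits, 8, 16 and 28 lay in the 5′, middle and 3′ of 3 equal parts. Its 53 MICAL1-FL summits fell 13, 18 and 22. In long genes with a known strand the control shares were 35.7, 33.1 and 31.2%, against 15.4, 30.8 and 53.8% in Grm7. With 5 equal parts, the last held 21 control and 14 MICAL1-FL summits of Grm7. The control list placed 4 summits within 10 kb there, from 806.8 to 811.4 kb, and its deepest Grm7 peak, at chr6:111456545-111456994, was among them (fold 3.51, 9 fragments).

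Grm8 showed another layout. Its 22 control summits fell 11, 5 and 6 in the 3 parts, and its 31 MICAL1-FL summits 10, 7 and 14. No control summit lay between 216.1 and 432.1 kb from the 5′ end, and no MICAL1-FL summit between 293.0 and 399.6 kb, so 106.6 kb was bare in both lists. Its deepest peak, at chr6:27978007-27978327 in the control list, had 10 fragments and a fold of 3.32. Its MICAL1-FL peak of lowest p, at chr6:27884616-27885023, had 8 fragments and a fold of 3.44. The microRNA gene Mir592 lies within Grm8, and its nearest summits were 2458 bp away in the control list and 5255 bp in the MICAL1-FL list.

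In Grm3, the control list had no summit in the first 75.5 kb inside the gene, where the MICAL1-FL list had 5. The 37.5 kb before the 3′ end were bare in both lists. Its deepest control peak, at chr5:9545963-9546401, had 8 fragments and a fold of 3.43. In Grm5, 125.2 kb from 74.4 to 199.7 kb past the lower-coordinate end were without a control summit and held 5 MICAL1-FL summits. Close to its other end the MICAL1-FL list had 3 summits between 545.6 and 547.7 kb, while the last control summit was at 504.1 kb. The deepest MICAL1-FL peak of Grm5, at chr7:87933082-87933565, had 8 fragments and a fold of 3.44. Its deepest control peaks were chr7:87979963-87980520 and chr7:88015863-88016365, with 7 fragments and a fold of 3.05 each. At counts of this size such stretches were not tested.

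**Figure D4:**
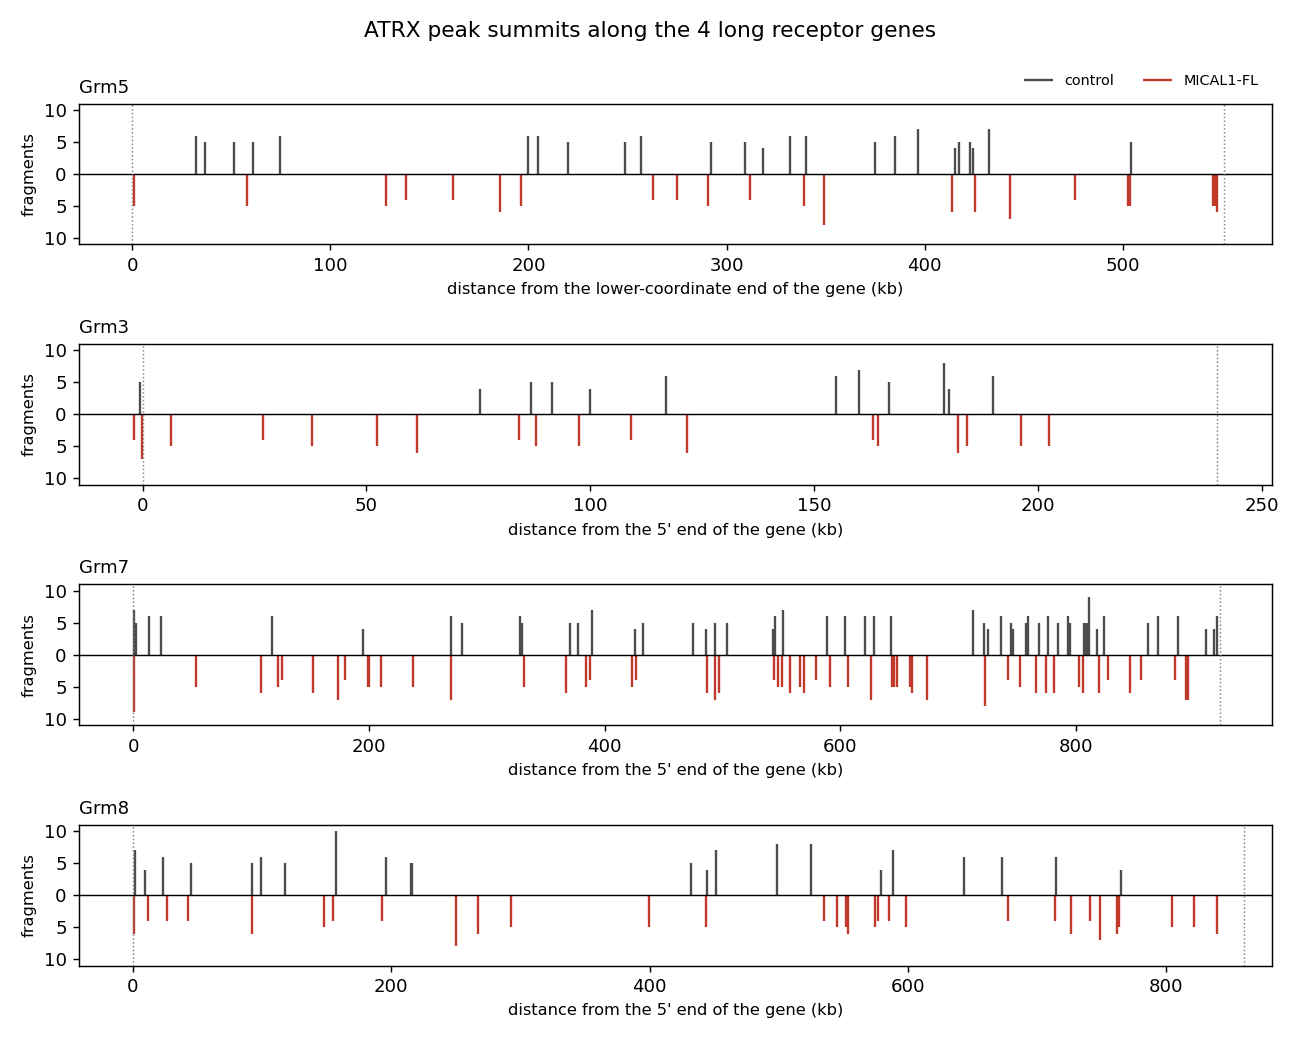
Summits along Grm5, Grm3, Grm7 and Grm8, by distance in kb from the 5′ end (from the lower-coordinate end for Grm5), with control peaks drawn upward and MICAL1-FL peaks downward, and the length of each line giving the peak's depth in fragments. Dotted lines mark the gene's ends. Control lines of Grm7 crowd into its 3′ part, and Grm8 has a bare stretch of 106.6 kb in both lists.

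Few member peaks were found in both lists. A base or more was shared with the other list by 7 of the 115 control peaks (6.09%, 2.48 to 12.1, exact Clopper-Pearson interval) and by 7 of the 129 MICAL1-FL peaks (5.43%, 2.21 to 10.9). In the windows of all protein-coding genes these shares were 8.06% of control and 8.69% of MICAL1-FL peaks, inside both intervals. The 7 pairs were those at the ends of Grm3, Grm4 and Grm7 described above, a further 2 in Grm7 and 2 in Grm8. In Grm7 the control peak chr6:111139039-111139291 overlapped by 215 bp (summits 168 bp apart) and chr6:111451498-111452203 by 168 bp (562 bp apart). In Grm8 chr6:28042493-28042740 overlapped by 229 bp (58 bp apart) and chr6:27690969-27691601 by 401 bp (204 bp apart). The pair 92542 bp into Grm8, with depths of 5 and 6 fragments, had the closest summits of all. Grm5 had no shared peak among its 24 and 22, which allows up to 14.2% and 15.4%.

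Every member peak was shallow. Depths, recovered from the authors' fold and p, ran from 4 to 10 fragments in the control list and 4 to 9 in the MICAL1-FL list, with a median of 5 in both. Up to 6 fragments made up 86.1% of the members' control and 88.4% of their MICAL1-FL peaks, against 83.3 and 85.8% in the whole lists. The authors' q was 1 for 110 of 115 and 125 of 129 peaks, and its lowest values were 0.395 and 0.139. No member peak had a q below 0.05, where 0.411% of control and 0.316% of MICAL1-FL peaks in protein-coding gene windows did. Median folds, 2.29 in both lists, and median widths, 340 and 318 bp, were close to those of the whole lists (2.29 in both, 334 and 332 bp).

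Genes that act with these receptors were described by the same count. The list of 47 held Homer and Shank scaffolds, G protein subunits, phospholipases, inositol trisphosphate receptors, adenylyl cyclases, protein kinases C, Elfn adhesion partners and glutamate transporters. Its pooled density was 70.8 per Mb in control and 66.0 with MICAL1-FL, beside 41.6 and 46.7 for the receptor genes. The sets differ in gene length, with 7.36 Mb of windows over 47 genes and 2.76 Mb over 7. No pooled density of all genes or of genes matched for length was computed. Per Mb the listed genes thus had more peaks than the receptor genes in both lists. These densities do not show that either set departs from other genes, and the part of gene length was not tested. Of the list's 26 genes with at least 10 peaks, 4 were called above the ratio of all genes and 5 below, where 20.7 and 19.5% of all genes were. The median log2 ratio of these 26 was 0.15, against -0.00458 over all genes with as many peaks. Pooled, the 47 genes held 521 control and 486 MICAL1-FL peaks, which is close to the ratio of 0.927 over all protein-coding gene windows. The highest counts of single genes were at the scaffolds Grip1 (47 and 43) and Shank2 (51 and 38) and the kinase Prkca (44 and 36).

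Called above were the phospholipase Plcb4 (14 and 20), the glial glutamate transporter Slc1a3 (6 and 16), the kinase Ptk2b (6 and 9) and Elfn2 (3 and 9). Called below were the kinase Prkcb (27 and 16), the G protein subunits Gnao1 (23 and 11) and Gnai1 (12 and 5), and the cyclases Adcy5 (17 and 10) and Adcy1 (18 and 8). Slc1a3 alone of these 9 had a ratio interval (0.991 to 8.32) that leaves out the 0.927 of all genes. The intervals of the other 8 include it, and neither share of called genes was above that of all genes. These 9 were picked by the same counts, with 1 library per group. How many of all genes have an interval that leaves out 0.927 was not counted, so Slc1a3 is not set apart.

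Other long genes had nearly the same pair of densities as the receptors. Likeness was the distance between log2 peaks per Mb in the 2 libraries, after 1 peak was added to each count. It was taken among genes of 0.5 to 2 times the window. Nearest to Grm7 were Cacna2d3 (46 and 48 peaks), Tafa2 (26 and 28) and Trappc9 (27 and 28), at distances of 0.031 to 0.064 among 263 genes. Nearest to Grm8 were Ccser1 (31 and 44), Spag16 (23 and 32) and Robo1 (27 and 38), at 0.013 to 0.058 among 298. Nearest to Grm5 were Ankrd44 (12 and 11), Utrn (22 and 20) and Ppfia2 (21 and 19), at 0.010 to 0.072 among 606. Nearest to Grm3 were Svep1 (8 and 12), Sh3d19 (8 and 12) and Gng12 (6 and 9), at 0.023 to 0.036 among 1778.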

How the data were processed

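Peak lists of 2 ChIP samples were used, control (mCherry) and MICAL1-FL, and the input sample was not analysed here. The submitters' processing notes name MACS 1.4.2, Bowtie 1.3.0, ChIPseeker 1.26.2 and SAMtools 1.9. Neither their roles nor the calling threshold were stated in the sources used here. No label states the build. GRCm38 was used, in whose coordinates summits gather at gene starts. As deposited by the authors, each peak has a fold ratio over background, a -log10 p, a -log10 q and a score, the whole part of 10 times -log10 p.

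Peaks were counted in each gene of the RefSeq table (GRCm38.p6) plus 5 kb on both sides, with Python 3.11.15, pandas 2.3.3 and scipy 1.17.1. Strand came from the RefSeq promoter table. Depth was solved from fold, taken as pileup + 1 over background + 1, and p, taken as a Poisson tail, for all 244 member peaks. That reading is an inference from the values. Counting, sharing and depth steps were tested on simulated data. The simulated folds and p-values were made with the same formula, so the depth test covers the solving and not the inference. The members and lists were chosen with earlier results of these data known. Named peaks were, per gene and list, the lowest p, every overlapping pair and every end peak. Partner genes named were the 3 with most peaks and all called ones, and like genes were the nearest 3. Peaks at other places, and the pairs of genes compared for density, were picked after their values were seen. Alternatives covered the window, the threshold, the list size, the meaning of shared, the end distance and the number of parts.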

Additional observations from a re-analysis of the deposited data

How the results depend on the processing

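No paired analysis was possible because each group has 1 sample. The count of peaks in all members fell to 0 in both lists with q below 0.05, since no member peak has such a q. Sharing depended on its definition: with at least 50% of both peaks overlapping it was 1.74% of control and 1.55% of MICAL1-FL peaks (3.30 and 3.56% over all protein-coding gene windows), and when gaps of 1 kb or less counted as shared, 18.3 and 16.3% (19.5 and 21.0%). With summits within 500 bp of an end, 2 members had a MICAL1-FL end peak in place of 5, Grm3 and Grm7. The log2 ratio of all members relative to all genes stayed between 0.16 and 0.26 over its 4 alternatives, within its counting interval. Of 28 recomputed values that answer a comparison, 21 kept to the size or interval of the reported one and 7 moved. Of 94 values of single genes and of call counts, 71 kept to it and 23 moved. Only the ratios of Grm3 and Grm8, the members called, could be labelled reversed, and 0 of them were. Peaks of 4 to 10 fragments and 1 library per group limit what can be seen at single genes.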
